A study of Saccharomyces cerevisiae with 11 samples.

Results

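The slope of expression on growth rate describes how the level of each transcript changed for every doubling of the specific growth rate, and it was fitted over all 11 of the 11 arrays in the study. The yeast was the prototrophic laboratory strain CEN.PK113-7D, of genotype MATa with the alleles MAL2-8c and SUC2, kept in anaerobic, glucose-limited culture. There were 5 groups. The chemostat group (T0) held 3 independent steady-state cultures at 0.025 per hour. The other 8 arrays came from retentostats, in which a filter in the outflow keeps the cells in the vessel while medium still flows in, so that the growth rate falls towards 0. A pair of retentostats was sampled after 2, 9, 16 and 22 days, with 1 array of each culture per day and growth rates of 0.0084, 0.0024, 0.0011 and 0.00063 per hour. The chemostat rate was 39.7 times the day 22 rate, a span of 5.31 doublings on the log2 scale. Day 2 lay 29.6% of the way along that span, day 9 63.7% and day 16 84.9%.

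Yeast tunes much of its transcriptome to how fast it grows. In fast cells the genes for ribosomes, tRNA charging and biosynthesis are strongly transcribed through TOR and protein kinase A signalling, while slow or starved cells turn to stress-protective proteins, storage carbohydrates and the use of carbon sources other than glucose. Without oxygen, yeast can make neither sterols nor unsaturated fatty acids and takes both from the medium, and it expresses a set of cell wall mannoproteins typical of such conditions.

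A negative slope means that the intensity was higher at slower growth, and a positive slope that it was lower. Slopes are in log2 intensity per doubling of growth rate, with standard errors (SE), and a gene was called when its Benjamini-Hochberg adjusted p from limma's moderated test over all 5597 genes was under 0.05. In this design growth rate and culture age cannot be told apart, and neither can the step from chemostat to filter vessel and the first fall in growth rate. Arrays of different retentostat days share a pair of cultures. The intensities are relative to the total signal of an array, so a loss of RNA per cell is not seen.

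Features of the arrays themselves moved along the same axis. The ratio of signal at the 5' end of actin to that at its 3' end, a sign of RNA integrity, was 0.766 to 0.796 in the chemostats, 0.709 to 0.748 on day 2, 0.669 to 0.734 on day 9, 0.472 to 0.736 on day 16 and 0.341 to 0.571 on day 22. Its part in the slopes was tested only as a covariate and by leaving out arrays. With it in the fit, 1899 genes were called instead of 2775, and 1752 of them were also called without it, each with the same sign. Without the 2 arrays of lowest ratio 2327 genes were called. The first array of day 9 stood apart from the fitted lines, with a root mean square residual of 0.459 log2 over all genes against 0.192 to 0.287 on the other 10 arrays. On that array 221 genes lay more than 1 log2 unit from their line, against 5 to 57 on each of the others. The total of slope calls was not lower without it, though the counts of some lists changed. Bends at day 9 rest on it, and those are given with and without it. The a-cell genes that mark the labelled mating type were present: the a-factor genes MFA1 and MFA2 had intensities of 6950 to 16732 and 6188 to 14014, and the alpha-factor receptor gene STE2 of 604 to 1128.5. The alpha-cell gene MF(ALPHA)1 also gave signal on all arrays. On days 16 and 22 it read higher than STE2 did on any array.

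Of the 5597 genes tested, 2775 (49.6%) had a slope. For 1963 genes (35.1%) the level was higher at slower growth, and for 812 (14.5%) it was lower. Slopes ran from -1.14 for the U4 spliceosomal RNA SNR14 to 0.78 for the iron permease gene FTR1, and the middle 90% of genes lay between -0.29 and 0.20. The 95% interval of a slope had a median half-width of 0.078, which is 0.41 log2 over the whole range of growth rates. Along the fitted line 735 called genes were at least 2-fold higher at day 22 than in the chemostats and 310 at least 2-fold lower, and 35 and 11 genes passed 8-fold. The straight line carried a median of 65.4% of the between-group sum of squares over all genes. Among called genes, which are chosen for their slope, the median was 86.0%, and the share was over 90% for 1043 of them (37.6%). Leaving out each array in turn gave 2228 (without the second chemostat) to 2978 calls, and 2059 genes were called in all 11 such fits.

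The balance between the directions depends on how the arrays are scaled. The median slope of all genes was -0.037 with the deposited scaling, -0.0087 after quantile normalization and 0.00085 when each array was scaled to 1 median. Over the whole range this is a median change at day 22 relative to the chemostats of 0.20, 0.046 and -0.0045 log2. The split was 1535 genes higher and 1213 lower after quantile normalization, and 1300 higher and 1363 lower with 1 median. The 2775 genes called with the deposited scaling kept their sign under both, and 2336 and 2112 of them were called there too. The counts of the gene lists therefore stand beside the shares of all genes, 35.1% higher and 14.5% lower.

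**Figure D1:**
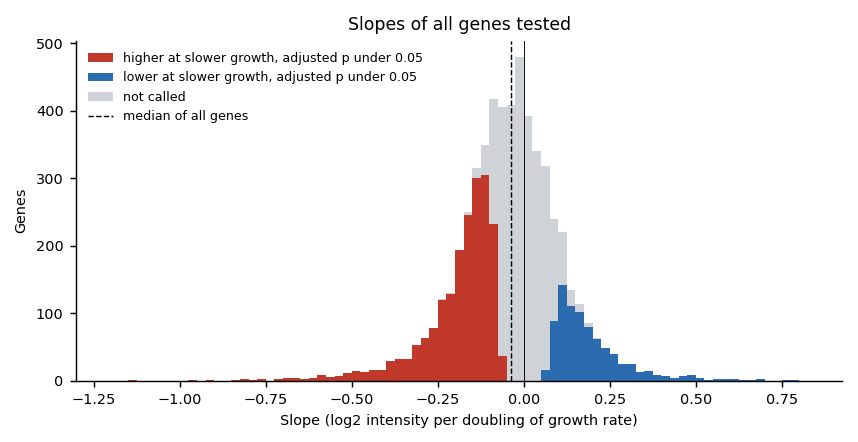
Histogram of the slopes of all 5597 genes tested, in log2 intensity per doubling of growth rate, with the number of genes in each bin on the vertical axis. Red marks the 1963 genes called higher at slower growth, blue the 812 called lower and grey the genes not called, and the dashed line is the median slope of -0.037, so the bulk of the genes sits slightly to the left of 0.

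The 10 steepest protein-coding genes that were higher at slower growth, leaving out those that departed from the line by the F test, included genes of gluconeogenesis, stationary phase, membrane stress and mating. Missing that test does not show that a gene followed the line. FBP1, which encodes fructose-1,6-bisphosphatase of gluconeogenesis, had intensities of 19.1, 20.9 and 22.8 in the chemostats, 44.2 and 40.3 on day 2, 161 and 129 on day 9, 245 and 289 on day 16, and 342 and 407 on day 22. Each step down in growth rate brought a higher level, no 2 groups overlapped, and the points lay almost on the line, with a slope of -0.81 ± 0.030 (95% interval -0.87 to -0.75, adjusted p 1.8e-09). The line at day 22 was 19.7 times its level in the chemostats. SPG1, a gene needed for survival in stationary phase at high temperature, had 46.9, 24.2 and 83.1 in the chemostats, 88.8 and 161 on day 2, 1050.2 and 621 on day 9, 785 and 848 on day 16, and 664 and 741 on day 22. It was high on all arrays from day 9 on and its groups from day 9 to day 22 overlapped, although its slope was -0.85 ± 0.10 (adjusted p 2.7e-05). MF(ALPHA)1, which encodes the pheromone alpha-factor and belongs to alpha cells, had 147, 152 and 194 in the chemostats, 380.5 and 328 on day 2, 666 and 1206 on day 9, 1575 and 1553 on day 16, and 1733 and 2049 on day 22, with a slope of -0.69 ± 0.037 (adjusted p 1.7e-07) in this MATa strain. HSP30, which encodes a plasma membrane protein that restrains the proton pump, had 1119.8, 655 and 1364 in the chemostats, 3544 and 3049 on day 2, 16816 and 9556 on day 9, 9566 and 11180.4 on day 16, and 10010.0 and 8709 on day 22. Its highest mean was at day 9, but only through the first array of that day. The second array of day 9 lay within the range of days 16 and 22. The slope of HSP30 was -0.67 ± 0.090.

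The other 6 of the 10 steepest genes were AAD10 (-0.63 ± 0.045), a putative aryl-alcohol dehydrogenase, TPO2 (-0.62 ± 0.063), a polyamine exporter, GIT1 (-0.61 ± 0.050), a permease for glycerophosphoinositol, PUL3 (-0.59 ± 0.091), SHH3 (-0.59 ± 0.087), a paralogue of a succinate dehydrogenase subunit, and COA2 (-0.55 ± 0.067), a cytochrome oxidase assembly factor. All had adjusted p of at most 1.8e-04. GIT1 and TPO2 were flat at first. GIT1 had 41.3, 37.1 and 65.0 in the chemostats, 52.1 and 50.4 on day 2, 167 and 165 on day 9, 254 and 314 on day 16, and 364 and 410.4 on day 22, so that its chemostat and day 2 arrays overlapped and all later ones lay above them. PUL3 was at the floor of 12 on 5 arrays, which leaves its steepness uncertain.

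At the other end stood iron uptake, sterol-related and anaerobic cell wall genes. PAU23, a seripauperin of the anaerobic cell wall family, had 4910.5, 4399 and 2062 in the chemostats, 1059 and 2637 on day 2, 555 and 512 on day 9, 375 and 380.4 on day 16, and 327 and 309 on day 22. Its slope was 0.69 ± 0.063 (adjusted p 4.7e-06), and the line at day 22 was 0.0787 times that in the chemostats. SIT1, a siderophore transporter that brings in iron, had 489, 534 and 337 in the chemostats, 440.1 and 529 on day 2, 51.1 and 64.0 on day 9, 63.0 and 30.8 on day 16, and 59.5 and 69.5 on day 22, with a slope of 0.69 ± 0.098 (adjusted p 1.1e-04). The chemostat and day 2 arrays formed a high group and the 6 later arrays a low one, with none between. CYB5, which encodes cytochrome b5, an electron donor to sterol-synthesis enzymes, had 844, 870.2 and 651 in the chemostats, 524 and 743 on day 2, 94.6 and 166 on day 9, 100.1 and 109.9 on day 16, and 75.1 and 107 on day 22 and a slope of 0.66 ± 0.062 (adjusted p 6.3e-06). It showed the same division, between day 2 and day 9.

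The rest of the 10 steepest genes of this sign were HAC1 (0.63 ± 0.17), the transcription factor of the unfolded protein response, ATF2 (0.62 ± 0.075), an alcohol acetyltransferase, PBI1 (0.60 ± 0.050), YHB1 (0.60 ± 0.075), a flavohaemoglobin that removes nitric oxide, HES1 (0.59 ± 0.068), an oxysterol-binding protein, the seripauperin PAU15 (0.56 ± 0.055) and SCM4 (0.56 ± 0.060), a mitochondrial outer membrane protein. PBI1 had 384, 328 and 184 in the chemostats, 179 and 194 on day 2, 58.0 and 89.5 on day 9, 35.2 and 41.0 on day 16, and 33.2 and 41.9 on day 22, and fell along the line at an adjusted p of 2.3e-06. HAC1 was the least regular of them. Its arrays read 1865, 2829.8 and 696 in the chemostats, 856 and 1089 on day 2, 1641 and 286 on day 9, 1424 and 121 on day 16, and 161 and 48.1 on day 22, so the replicates of days 9 and 16 differed several-fold, its 4 other probe sets had slopes of 0.43 or less, and its slope was not called with the actin ratio as a covariate (adjusted p 0.48). YHB1 had 4 probe sets, and 1 dim set of them had a slope of the opposite sign (-0.44).

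**Figure D2:**
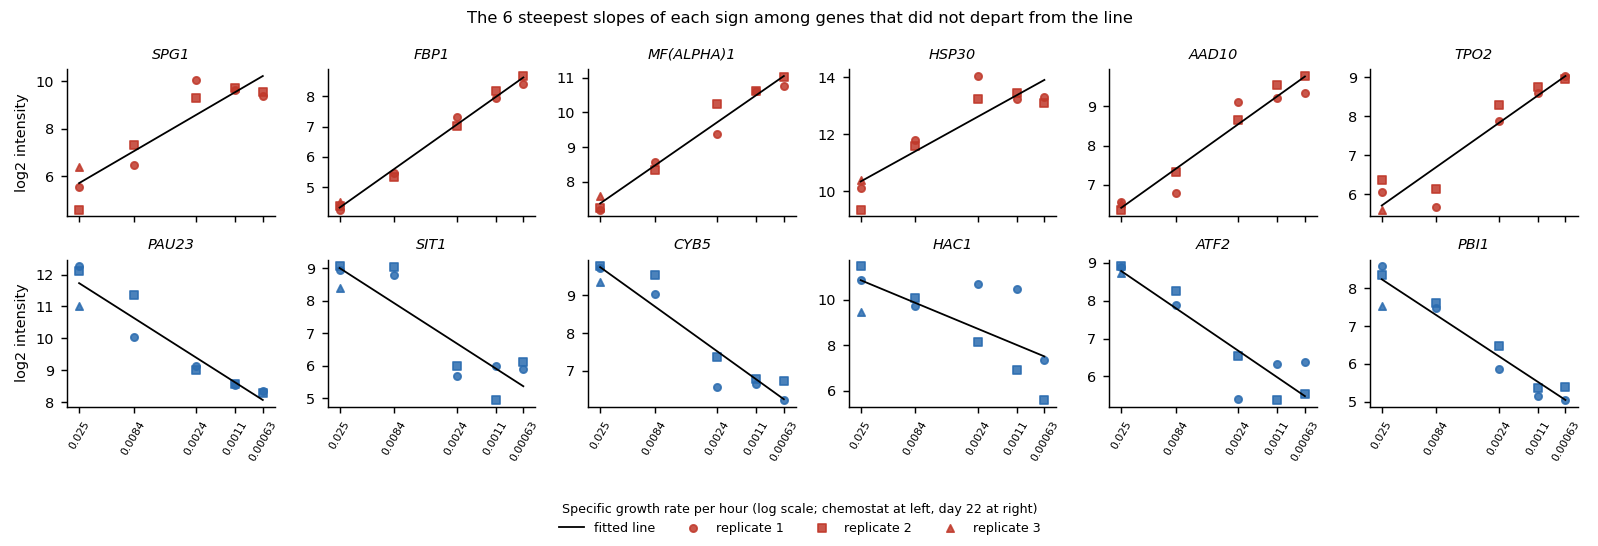
Log2 intensity of 12 genes (vertical axes) against the specific growth rate per hour on a log scale (horizontal axes, chemostat at left and day 22 at right), 1 point per array, marker shape by replicate number, with the fitted line. The upper row holds the 6 steepest genes that were higher at slower growth (red), led by SPG1 with a slope of -0.85, and the lower row the 6 steepest that were lower (blue), led by PAU23 at 0.69. HAC1 is the gene whose replicates lie farthest apart.

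Of 66 genes of the respiratory chain and ATP synthase 48 were higher at slower growth and 1 was lower, with a median slope of -0.15 beside -0.037 for all genes. These cultures had no oxygen to respire. COX26, a small subunit associated with cytochrome oxidase complexes, had 219, 186 and 419 in the chemostats, 512 and 535 on day 2, 1671 and 947 on day 9, 1289.7 and 1511 on day 16, and 1336 and 1540.2 on day 22, a slope of -0.50 ± 0.059 and an adjusted p of 2.5e-05. CYC7, the cytochrome c isoform of low-oxygen growth, had a slope of -0.49 ± 0.095 but bent at day 9. Without the first array of day 9 no change of slope was called for CYC7. HAP1, the haem-activated transcription factor listed with this group, was the member that was lower (0.26 ± 0.044). Among 67 mitochondrial ribosomal proteins 54 were higher and 0 lower (median -0.15), led by MRPL33 (-0.33 ± 0.043) and MRPL37 (-0.32 ± 0.033), and 35 were called with the actin covariate. Scaling to 1 median gave 37 higher and 1 lower. Over the retentostat arrays only, with fewer arrays and a narrower range of growth rates, 12 of the 66 and 17 of the 67 were higher, beside 11.5% of all genes.

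Gluconeogenesis, the glyoxylate cycle and acetate use were mixed, with 13 of 33 higher and 5 lower (median -0.085). The share higher was 39.4%, beside 35.1% of all genes. FBP1 and the carnitine carrier gene CRC1 (-0.43 ± 0.050) were the steepest of the risers. The cytosolic acetyl-CoA synthetase gene ACS2 (0.30 ± 0.033) and the mitochondrial aldehyde dehydrogenase gene ALD5 (0.33 ± 0.048) were lower. ACS2 had 1872, 1734 and 1508 in the chemostats, 1254 and 1523 on day 2, 604 and 773 on day 9, 681 and 633 on day 16, and 599 and 639 on day 22, a decline that was largely complete by day 9. The tricarboxylic acid cycle had 10 of 24 genes higher and 4 lower, 41.7% and 16.7% beside 35.1% and 14.5% of all genes. SDH3 (-0.33 ± 0.035) and SDH4 (-0.22 ± 0.058) of succinate dehydrogenase were among those higher. The malic enzyme gene MAE1 (0.36 ± 0.057) was the steepest of those lower. With 1 median 4 were higher instead of 10. Peroxisome and beta-oxidation genes had 22 of 46 higher and 4 lower (median -0.072), led by PEX18 (-0.33 ± 0.049), a factor for peroxisomal import, and the peroxisomal catalase gene CTA1 (-0.32 ± 0.060). With 1 median, 12 were higher, and with the actin covariate 11. Over the retentostat arrays only, 5 of the 33, 2 of the 24 and 8 of the 46 genes of these 3 lists were higher, beside 11.5% of all genes.

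Glycolysis and alcoholic fermentation, the source of ATP in anaerobic yeast, did not share a direction. Of 33 genes 7 were higher and 7 lower, 21.2% each beside 35.1% and 14.5% of all genes. The list median of -0.014 became 0.020 after quantile normalization and 0.027 with 1 median. Each count was 4 with the actin covariate and without the second chemostat, the count lower was also 4 without the first chemostat, without the second array of day 22 and without the 2 arrays of lowest actin ratio, and the count higher was 3 with 1 median. Without any chemostat 1 was higher and 2 were lower, beside 11.5% and 2.59% of all genes. The slopes of PGK1 (-0.0023 ± 0.043), ADH1 (0.018 ± 0.040) and TDH3 (-0.049 ± 0.047) had adjusted p of 0.97, 0.73 and 0.4. ADH1 became a call of the positive sign after quantile normalization. The hexokinase gene HXK2, repressed when glucose is scarce, was lower (0.32 ± 0.089, adjusted p 0.0089), and the ethanol-consuming isoenzyme gene ADH2 was higher (-0.25 ± 0.047). Among 22 hexose transporter and sensor genes 8 were higher, a share of 36.4% beside 35.1% of all genes, and 1 was lower. The number higher was 5 without the first chemostat, without the second, with the actin covariate, with 1 median and after quantile normalization, where 4 were lower, and it was 3 in the retentostat arrays alone. HXT5, a transporter of slow-growing cells, had 572, 363 and 762 in the chemostats, 996 and 1355 on day 2, 4108 and 2892 on day 9, 2277 and 2587 on day 16, and 2239 and 1909.5 on day 22 and a slope of -0.42 ± 0.080. It peaked at day 9. HXT1, a low-affinity transporter, was at or near the floor until day 9 and reached 50.6 and 82.1 at day 22 (-0.40 ± 0.084). The glucose-signalling gene MTH1 was the member that was lower (0.14 ± 0.032). HXT6 and HXT7 are near-identical and cannot be separated by such probes.

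In 4 of the 5 lists of storage and stress genes 58.1% to 80.8% of the members were higher at slower growth. Most of these calls were not made without the chemostats: over the retentostat arrays only, where 11.5% of all genes were higher, it was 3 of 26 for trehalose and glycogen, 5 of 51 for Msn2 and Msn4 targets, 5 of 23 for stationary phase, 7 of 43 for oxidative stress and 1 of 33 for heat shock. Trehalose and glycogen metabolism had 21 of 26 genes higher and 1 lower (median -0.13). GLG2, a glycogenin that primes glycogen, had 51.6, 35.6 and 51.4 in the chemostats, 63.4 and 84.9 on day 2, 248 and 168 on day 9, 202 and 238 on day 16, and 194 and 243 on day 22 (-0.47 ± 0.050, adjusted p 1.2e-05), and SGA1, a glucoamylase, had a slope of -0.45 ± 0.040. The number higher was 9 with 1 median and 13 without the second chemostat, so the count depends on the scaling and on that culture. The phosphoglucomutase gene PGM1 was lower (0.27 ± 0.087). Of 51 targets of the stress regulators Msn2 and Msn4, 39 were higher and 0 lower (median -0.15), and 23 were higher with 1 median. GRE1, a hydrophilin gene, had a slope of -0.50 ± 0.083. The gene for Msn4 was itself slightly higher (-0.10 ± 0.024, adjusted p 0.0033) and that for Msn2 lower (0.14 ± 0.045, adjusted p 0.019). Stationary phase and quiescence genes had 14 of 23 higher and 1 lower, the acetyltransferase subunit gene ARD1 (0.20 ± 0.058). Oxidative stress defence had 25 of 43 higher, with the peroxidase gene GPX1 (-0.52 ± 0.066) next to AAD10, and 5 lower, among them YHB1 and the peroxiredoxin gene TSA2 (0.28 ± 0.040). Without the first or the second chemostat 3 were lower, and 10 with 1 median. Of 33 heat shock protein and chaperone genes 13 were higher, which is 39.4% beside 35.1% of all genes (8 with 1 median), and 1 was lower, SSA2 (0.27 ± 0.034), a cytosolic Hsp70 expressed in growing cells. HSP26, a small heat shock protein, had a slope of -0.22 ± 0.056 (adjusted p 0.0055) and HSP12 of -0.13 ± 0.055 (adjusted p 0.062), both with their highest mean at day 9.

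Autophagy genes had 25 of 36 higher and 4 lower (median -0.13), with ATG39 (-0.42 ± 0.055), a receptor for autophagy of the nuclear envelope, and ATG45 (-0.40 ± 0.036), a glycogen receptor, the steepest. ATG45 had 188, 169 and 253 in the chemostats, 352 and 373 on day 2, 732 and 647 on day 9, 713 and 816 on day 16, and 819 and 842 on day 22. The vacuolar lipase gene ATG15 was lower (0.52 ± 0.16, adjusted p 0.017) on uneven arrays, with 223 and 14.6 at day 9. The proteasome had 20 of 38 genes higher and 1 lower, but with a median of only -0.069. Here 5 were higher with 1 median, 12 after quantile normalization, 7 with the actin covariate and 13 without the second chemostat. In the retentostat arrays alone 6 of the 36 autophagy genes and 2 of the 38 proteasome genes were higher, beside 11.5% of all genes. UMP1 (-0.20 ± 0.028), the assembly chaperone, and RPN13 (-0.19 ± 0.030), a ubiquitin receptor, were the steepest.

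Of 21 aminoacyl-tRNA synthetases, 18 were lower at slower growth and 0 were higher (median 0.15), for example TYS1 (0.24 ± 0.054) for tyrosine and CRS1 (0.23 ± 0.064) for cysteine. With the actin covariate 12 were lower. In the retentostat arrays alone 0 of the 21 were lower at an adjusted p under 0.05 (median slope there 0.084), beside 2.59% of all genes. At that share a count of 0 in so small a list says little. Translation factors had 14 of 31 lower (23 with 1 median, and 2 in the retentostat arrays alone) and 1 higher, the initiation factor gene SUI1 (-0.13 ± 0.031). HYP2, which encodes the translation factor eIF5A and whose probes cannot be told from its anaerobic copy ANB1, had 4776, 4573 and 4924 in the chemostats, 3445 and 4783 on day 2, 1687 and 2134 on day 9, 1319 and 1044 on day 16, and 1039 and 1075 on day 22 (0.44 ± 0.036, adjusted p 2.3e-06). Its chemostat and day 2 arrays overlapped, those of day 9 lay below them, and those of days 16 and 22 lay lower again and overlapped each other. TEF4, a subunit of elongation factor 1B, had a slope of 0.32 ± 0.044.

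Of 81 cytosolic ribosomal proteins 22 were lower and 1 was higher (median 0.060). The 81 include RPP1, which encodes a subunit of ribonuclease P and not a ribosomal protein. The number lower was 14, 13 and 12 without the first, the second and the third chemostat, 8 with the actin covariate, 56 with 1 median and 0 in the retentostat arrays alone. RPL7A had 3401, 3893 and 3927 in the chemostats, 2609.9 and 2409 on day 2, 1304 and 2544 on day 9, 2616 and 1650.4 on day 16, and 1538 and 1657 on day 22 (0.21 ± 0.045, adjusted p 0.0016), RPP2A, an acidic stalk protein, had a slope of 0.22 ± 0.048, and RPS14B was the member that was higher (-0.17 ± 0.051). RPL3 (0.082 ± 0.037) and RPS3 (-0.016 ± 0.030) had adjusted p of 0.082 and 0.68. Many ribosomal proteins have a near-identical second copy, so values cannot be assigned to 1 copy with certainty. Of 129 ribosome biogenesis factors 27 were lower and 4 higher (median 0.068), and the lower count was 13 without the second chemostat, 45 without the first array of day 9, 1 in the retentostat arrays alone, 50 after quantile normalization and 61 with 1 median. The list also holds genes of other functions, such as the amino acid permease gene DIP5 and the mitochondrial peptidase genes IMP1 and IMP2. The acetyltransferase genes MAK3, MAK10 and MAK31 are in it too. NOP58, a core protein of box C/D snoRNPs, had 1661, 1929 and 1581 in the chemostats, 1164 and 1143 on day 2, 255 and 637 on day 9, 569.7 and 413 on day 16, and 633 and 502 on day 22 (0.37 ± 0.069). Its lowest array was the first of day 9. The RNA polymerase I and III machinery had 8 of 35 lower, such as RPA43 (0.22 ± 0.056) of polymerase I, and 4 higher, such as RPC37 (-0.19 ± 0.037) of polymerase III. With 1 median 16 were lower, after quantile normalization 15, and in the retentostat arrays alone 0. For the ribosomal proteins, biogenesis factors and polymerase machinery alike, the counts lower in the retentostat arrays alone stand beside 2.59% of all genes.

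Biosynthesis of amino acids declined with growth rate in 41 of 68 genes and was higher in 4 (median 0.13). Without the chemostats 4 of the 68 were lower, beside 2.59% of all genes. ASN1, an asparagine synthetase, had 1321, 1530.4 and 844 in the chemostats, 761 and 566 on day 2, 191 and 287 on day 9, 216 and 278 on day 16, and 278 and 250.0 on day 22 (0.46 ± 0.060, adjusted p 5.3e-05), and reached its low level by day 9. HIS7 of histidine synthesis had a slope of 0.42 ± 0.070. TRP1 (-0.17 ± 0.029) and GLY1 (-0.16 ± 0.044), a threonine aldolase, were the steepest of the 4 that were higher. Sulfur amino acid genes had 14 of 29 lower, among them SAM2 (0.36 ± 0.046) of S-adenosylmethionine synthesis, and 6 higher, among them STR3 (-0.28 ± 0.034), a cystathionine beta-lyase. The lower count was 9 without the first or the second chemostat, 8 with the actin covariate and 2 in the retentostat arrays alone. Genes under nitrogen catabolite repression had 7 of 27 higher and 5 lower, 25.9% and 18.5% beside 35.1% and 14.5% of all genes. PUT1, a proline oxidase, was higher (-0.41 ± 0.041) and the general amino acid permease gene AGP1 was lower (0.29 ± 0.055). Without the chemostats 7 were higher and 0 lower, beside 11.5% and 2.59% of all genes.

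The most uniform positive slopes were in ergosterol synthesis and in the anaerobic mannoproteins. Of 25 genes of ergosterol biosynthesis 23 were lower at slower growth and 0 higher, with a median of 0.31. ERG11, the lanosterol demethylase, had 6094, 5790.0 and 5476 in the chemostats, 6183 and 5933 on day 2, 3078 and 3011 on day 9, 2152 and 1971 on day 16, and 1983 and 1645 on day 22 (0.34 ± 0.036, adjusted p 1.2e-05). The chemostat and day 2 arrays overlapped, and every array from day 9 on was lower than these. ERG1, the squalene epoxidase and the first step that needs oxygen, had 2594, 2603 and 2116 in the chemostats, 2079 and 2035 on day 2, 450.1 and 716 on day 9, 516 and 391 on day 16, and 609 and 501 on day 22 (0.49 ± 0.058). Of 16 PAU, DAN and TIR mannoproteins 14 were lower and 0 higher (median 0.40), and seripauperins are so alike that their probes can share signal. Sterol uptake and regulator genes had 8 of 20 lower, among them HES1 and OSH6 (0.38 ± 0.039), a lipid transfer protein, and 2 higher, the sterol regulator ECM22 (-0.23 ± 0.030) and SPT23 (-0.12 ± 0.029), an activator of unsaturated fatty acid synthesis. With 1 median 13 were lower. These 3 lists kept their slope inside the retentostats, where 19 of 25, 13 of 16 and 7 of 20 were lower without the chemostat arrays, beside 2.59% of all genes.

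Metal homeostasis was mixed. Of 34 iron regulon genes 10 were higher and 10 lower (median 0.022), 29.4% each beside 35.1% and 14.5% of all genes. In the retentostat arrays alone 1 was higher and 8 were lower, beside 11.5% and 2.59% of all genes. The uptake genes FTR1 and FIT2 had the steepest positive slopes among them and are described with the bent genes. AFT2 (-0.23 ± 0.028), a regulator of iron uptake, and FRE4 (-0.27 ± 0.051), a ferric reductase, were higher. The 15 zinc regulon genes had 6 higher, such as ZPS1 (-0.22 ± 0.047), and 4 lower, such as IZH4 (0.46 ± 0.062). Their shares were 40% and 26.7%, beside 35.1% and 14.5% of all genes. The number higher was 3 after quantile normalization and with 1 median, and 2 with the actin covariate and in the retentostat arrays alone. IZH4, a membrane protein of zinc homeostasis, had 950.0, 914 and 847 in the chemostats, 1039 and 855 on day 2, 655 and 432 on day 9, 228 and 329.5 on day 16, and 122 and 192 on day 22, level until day 2 and then lower at each step.

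Of 21 G1 cyclin and Start genes 5 were higher and 5 lower, 23.8% each beside 35.1% and 14.5% of all genes. These small counts shifted with single arrays. The number lower was 3 without any 1 of the 3 chemostats, of the 2 arrays of day 2 or of the 2 of day 16, and 2 without the 2 arrays of lowest actin ratio, and it was 8 with 1 median. The number higher was 3 without the second chemostat, without the first array of day 22, with the actin covariate and under both other scalings. The B-type cyclin gene CLB5 (-0.20 ± 0.023) and FAR1 (-0.13 ± 0.025), an inhibitor of the G1 cyclin-dependent kinase, were higher. WHI5, the repressor of Start, was lower (0.45 ± 0.12, adjusted p 0.0054). It read 117, 138 and 39.4 in the chemostats, 64.8 and 34.6 on day 2, 63.8 and 18.4 on day 9, 66.6 and 12 on day 16, and 12 and 12 on day 22, so that it ended at the floor, with replicates of days 9 and 16 apart. PCL1, a G1 cyclin, was lower too (0.42 ± 0.081). CDC28, the central kinase of the cycle, was slightly higher (-0.11 ± 0.024, adjusted p 0.0026), and the slope of CLN3, the upstream G1 cyclin, was not called (-0.089 ± 0.044, adjusted p 0.11). Mitotic genes had 5 of 28 lower, including CLB1 (0.24 ± 0.047) and the transcription factor SWI5 (0.27 ± 0.070), and 2 higher, so that 21 of the 28 had no call. The shares, 17.9% lower and 7.14% higher, stand beside 14.5% and 35.1% of all genes. With 1 median 9 were lower. Daughter cell separation genes had 7 of 16 lower, including SUN4 (0.28 ± 0.067) and EGT2 (0.26 ± 0.044), and 2 higher, 1 of them ASH1 (-0.18 ± 0.032), a daughter-specific repressor. The number lower was 4 without the first chemostat, the second or the first array of day 16. In the retentostat arrays alone 0 of the 21, 28 and 16 genes of these 3 lists were lower, beside 2.59% of all genes. At that share a count of 0 in lists this small says little. DNA replication and nucleotide supply had 12 of 54 higher and 6 lower, 22.2% and 11.1% beside 35.1% and 14.5% of all genes. Its count lower was 16 with 1 median and 11 after quantile normalization. With the actin covariate 7 were higher. The large subunits of ribonucleotide reductase went opposite ways, RNR1 of normal growth at 0.33 ± 0.069 and the inducible RNR3 at -0.59 ± 0.090.

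**Figure D3:**
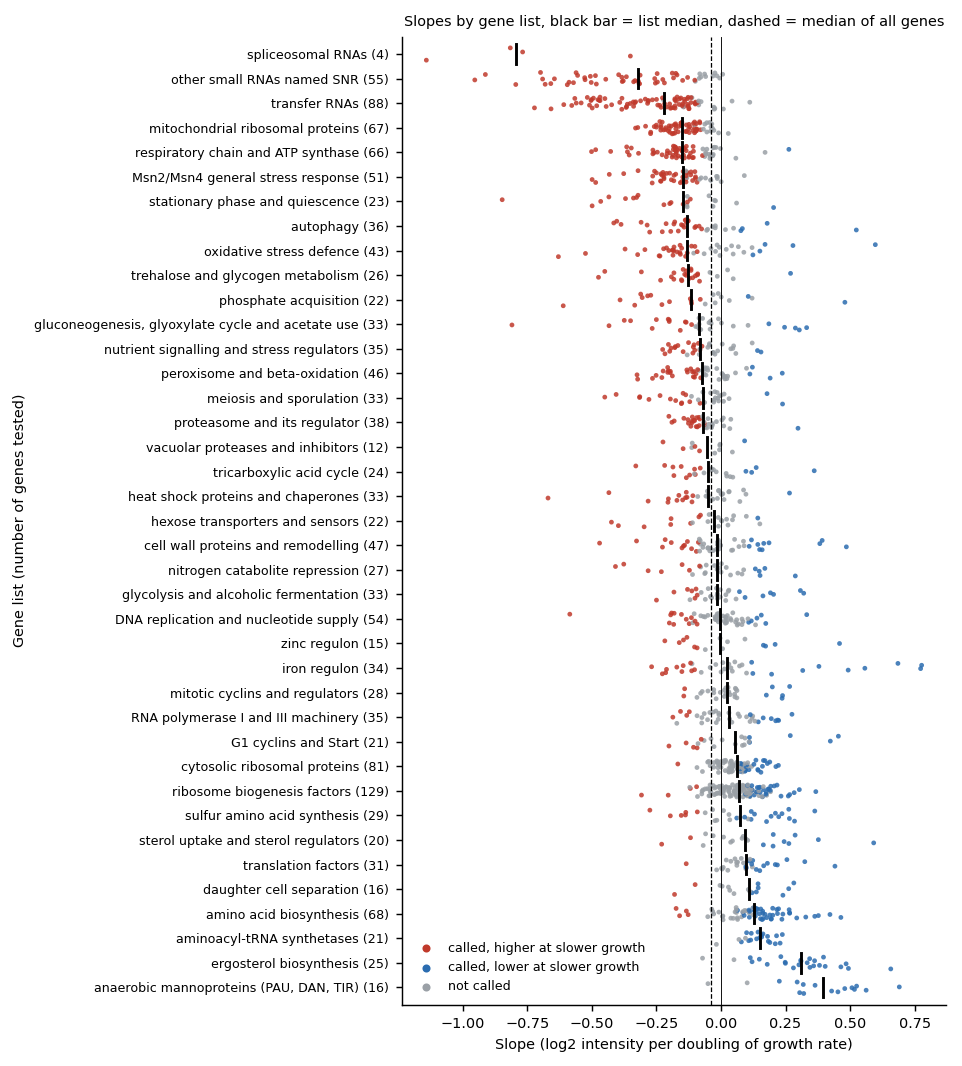
Slopes of the genes of each list (horizontal axis, log2 intensity per doubling of growth rate), 1 point per gene, with the lists ordered by their median (black bar) and the number of genes tested in brackets. Red points were called higher at slower growth, blue lower, and grey not called. Spliceosomal and small nucleolar RNAs stand at the top with medians of -0.79 and -0.32, ergosterol synthesis (0.31) and the anaerobic mannoproteins (0.40) at the bottom, and the dashed line is the median of all genes (-0.037).

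Non-coding RNAs had the steepest slopes of all. Of 154 tested, 128 were higher at slower growth and 0 were lower, with a median slope of -0.26 beside -0.032 for protein-coding genes. SNR14, the U4 RNA of the spliceosome, had 21.6, 25.7 and 74.6 in the chemostats, 44.9 and 190.4 on day 2, 293 and 1249.7 on day 9, 965 and 2488 on day 16, and 1148 and 2418 on day 22 (-1.14 ± 0.12, adjusted p 1.3e-05). The replicates of each retentostat day differed widely, yet every array from day 9 on lay above all chemostat and day 2 arrays. SNR45, a box H/ACA small nucleolar RNA, had 15.4, 12 and 29.0 in the chemostats, 16.2 and 24.1 on day 2, 70.7 and 60.7 on day 9, 295 and 354 on day 16, and 403 and 690.3 on day 22 (-0.95 ± 0.096), and SNR71, a box C/D one, a slope of -0.91 ± 0.078. All 4 spliceosomal RNAs tested were higher, including a form of U5, SNR7-L (-0.82 ± 0.079), and so were 44 of 55 other small RNAs named SNR and 76 of 88 tRNAs, with SUF6 (-0.72 ± 0.091) and SUF1 (-0.66 ± 0.082) the steepest. The labelling starts at poly(A) tails, which mature forms of these RNAs mostly lack, so how their intensity relates to the mature RNA is not known here. The actin ratio fell along the same axis, and with it as a covariate 34 of the 55 and 38 of the 88 were higher. In the retentostat arrays alone 35 of 55 and 32 of 88 were higher, beside 11.5% of all genes.

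Few genes departed from a straight line by the test over all 3 remaining terms, 21 of 5597 (0.375%), while 851 had an unadjusted p under 0.05. Of the 21 genes 15 also had a slope. By shape 13 turned, with their highest or lowest mean at an intermediate day, 3 changed early and 5 late. The count is fragile: it was 0 without the first array of day 22, 45 without the first array of day 9 and 325 without the second, and 0 of the 21 genes were called in all 11 fits that left out 1 array. Without the first array of day 9, 16 of the 21 were still called.

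FLO11, which encodes the flocculin of cell adhesion and filamentous growth, had the largest departure. It had 1732, 1411 and 1781 in the chemostats, 159.5 and 189 on day 2, 152 and 210.0 on day 9, 222 and 141 on day 16, and 327 and 252 on day 22 (departure adjusted p 0.0062). All retentostat arrays lay below all chemostats, and the retentostat arrays alone had a slope of -0.15 ± 0.081 (adjusted p 0.24), which is opposite in sign to the slope of 0.49 ± 0.13 over all arrays. It was called in 10 of the 11 leave-out fits. ALD6, a cytosolic acetaldehyde dehydrogenase, had the same form, with 2109.5, 2276 and 1712 in the chemostats, 322 and 505 on day 2, 627 and 608 on day 9, 762 and 604 on day 16, and 679.6 and 676 on day 22 (departure adjusted p 0.015). Its slope of 0.25 ± 0.096 over all arrays was -0.21 ± 0.061 in the retentostats. FAA1, an acyl-CoA synthetase, had 32.2, 22.7 and 45.4 in the chemostats, 13.2 and 18.9 on day 2, 17.4 and 22.2 on day 9, 55.3 and 50.9 on day 16, and 101 and 87.8 on day 22, with its lowest mean at day 2 and its highest at day 22 (departure adjusted p 0.025). NOP8, a factor of large ribosomal subunit assembly, was lowest at day 9, with 19.1 and 23.3, and had 81.9 and 89.3 at day 22, against 50.7, 59.5 and 51.6 in the chemostats.

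FTR1 and FIT2, both of the iron regulon, were low from day 9 on. FTR1, the high-affinity iron permease, had 961, 1137 and 805 in the chemostats, 573 and 848 on day 2, 61.5 and 73.1 on day 9, 70.7 and 84.1 on day 16, and 93.4 and 89.4 on day 22 (0.78 ± 0.097, departure adjusted p 0.015). From the chemostats to day 9 its slope was 1.12 ± 0.13, and from day 9 to day 22 it was 0.016 ± 0.24. FIT2, a cell wall mannoprotein that holds siderophore iron, had 4011, 3729.5 and 3009 in the chemostats, 3386 and 3419 on day 2, 273 and 226 on day 9, 411 and 219.6 on day 16, and 374 and 381 on day 22 (departure adjusted p 0.015). Its lowest mean was at day 9, and both arrays of day 22 lay above both of day 9. PIR3, a cell wall protein, and RNR3 rose before day 9 instead. RNR3 had 269, 228 and 356 in the chemostats, 1470.0 and 1341 on day 2, 2765 and 2731 on day 9, 2693 and 2139 on day 16, and 2674 and 1962 on day 22, so that the rise was mostly complete by day 9 (-0.98 ± 0.089 before day 9 and 0.28 ± 0.17 after it, departure adjusted p 0.018), and PIR3 was -0.82 ± 0.070 before day 9 and 0.30 ± 0.13 after it.

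The late genes began at the floor. GAT4, a GATA-family regulator, was at 12 on all 5 arrays of the chemostats and day 2, had 13.4 and 15.2 on day 9 and 27.4 and 24.9 on day 16, and reached 60.3 and 54.8 on day 22 (departure adjusted p 0.015). SCEI, an endonuclease encoded in an intron of the mitochondrial genome, was at the floor until day 9 and had 26.8 and 23.2 on day 16 and 63.8 and 43.2 on day 22 (departure adjusted p 0.023). A floor bends any line through such values, so their shape before day 9 was not measured, and 14 of the 21 departures were not called when the floor was removed. The remaining departures were the stress-inducible Hsp70 gene SSA3, the ammonium permease gene MEP3, FAT3, the ribonuclease H2 gene RNH201, YRO2, the proteinase A inhibitor gene PAI3, TMA46, the uncharacterized reading frame YKL183C-A, the ribosomal RNA probe set RDN37-1, the proline tRNA SUF2 and the small nucleolar RNA SNR37. SSA3 had 349, 316 and 353 in the chemostats, 939 and 848 on day 2, 3385 and 2218 on day 9, 1500.1 and 1886 on day 16, and 1507 and 1138 on day 22, a peak at day 9. RDN37-1 has 6 other probe sets, all with negative slopes (-0.12 to -0.56) where the brightest was level (-0.010), so its shape is that of 1 probe set.

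**Figure D4:**
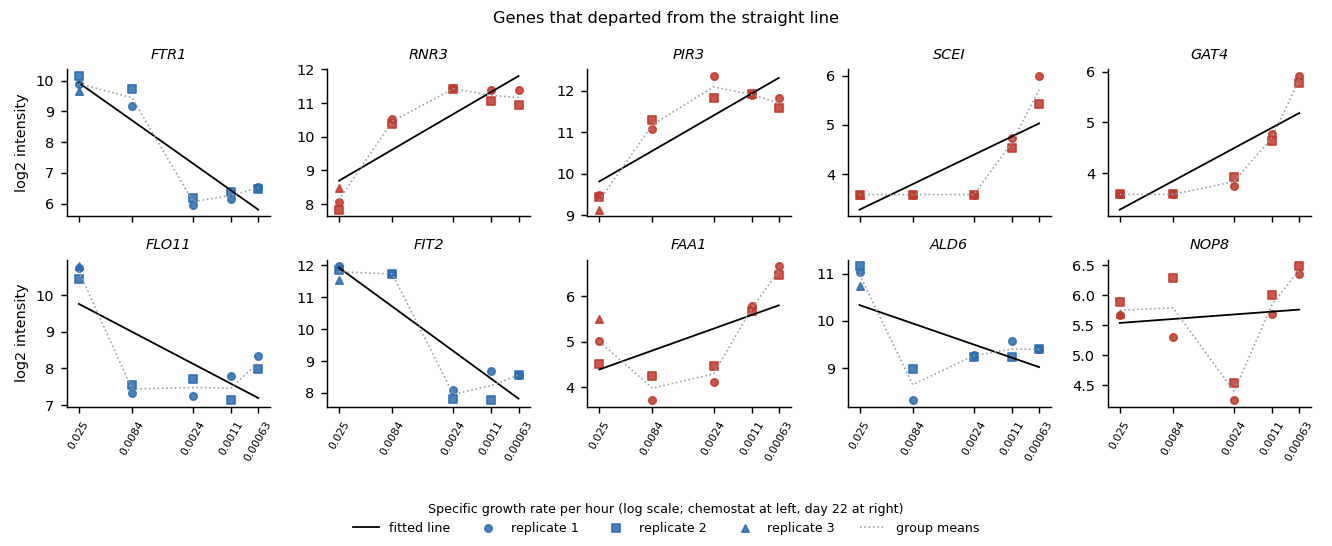
Log2 intensity (vertical axes) of 10 genes that departed from the straight line, against the specific growth rate per hour on a log scale (horizontal axes, chemostat at left and day 22 at right), 1 point per array, with the fitted line and the group means (dotted). Red genes had a negative slope and blue ones a positive slope. FTR1 fell to day 9 and then stayed level, and FLO11 dropped between the chemostats and day 2. GAT4 was just above the floor on day 9, and SCEI left it only after day 9.

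Less strict measures of bending found more genes and rested on the same arrays. The quadratic term was called for 139 genes (2.48%), of which 71 turned, 23 with their peak and 29 with their trough at day 9, and 13 with a trough at day 2. A line with a hinge at day 9 had a change of slope in 333 genes (5.95%), of which 308 had opposite signs on the 2 sides. Without the first array of day 9 it was 11 genes and without the second 773. It was 37 without the second array of day 22, 117 without the second chemostat, 136 without the first, and 176 without the first array of day 22. It was 86 with the actin covariate and 17 without the 2 arrays of lowest actin ratio. The quadratic count was 65 without the first array of day 9 and 25 without the second of day 22.

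The direction of the bends differed between lists, as descriptions that share those arrays. Among Msn2 and Msn4 targets 14 of 51 had a hinge towards a more positive slope after day 9, that is, a rise that stopped or turned, against 0 without the first array of day 9. The list's median slope was -0.28 before day 9 and 0.094 after it. Over all 5597 genes 127 changed towards a more positive slope and 206 towards a more negative one. In ribosome biogenesis 13 of 129 bent the other way, a decline that stopped or turned, against 1 without that array and 62 without the second array of day 9. Its medians were 0.19 and -0.20. Over all genes the medians were -0.018 and -0.081. The mannoproteins (0.48 and 0.39), ergosterol synthesis (0.33 and 0.22) and phosphate acquisition (-0.13 and -0.098) had medians of 1 sign on both sides of day 9. The 4 spliceosomal RNAs had medians of -0.67 and -0.93, but a change of slope at day 9 was called for 0 of them. Among called genes with at least a 2-fold difference between the day 22 and chemostat means, the 692 that were higher had made a median of 30.9% of the change by day 2 and 74.2% by day 9, and the 254 that were lower 35.5% and 85.7%, while growth rate had covered 29.6% and 63.7% of its log2 span.

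Without the chemostats, 790 genes (14.1%) had a slope over the 8 retentostat arrays and their 4 growth rates, 645 higher at slower growth (11.5%) and 145 lower (2.59%). Of these, 760 were among the 2775 and 759 had the same sign there. The sign was the same for 2740 of the 2775 genes, called or not. The exception among the shared calls was ALD6. FBP1 (-0.85 ± 0.053), GIT1 (-0.79 ± 0.050), TPO2 (-0.83 ± 0.083) and SCM4 (0.73 ± 0.097) were at least as steep within the retentostats, whereas the slopes of RNR3 (-0.19 ± 0.076), SHH3 (-0.30 ± 0.12) and HSP30 (-0.40 ± 0.13) were not called there, with adjusted p of 0.13, 0.11 and 0.066. Slopes fitted separately to the 4 arrays numbered 1 and the 4 numbered 2 correlated over the 5597 genes with r = 0.730, and 74.3% had the same sign. Genes are not independent of each other, and both sets share the growth rates and days.

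**Figure D5:**
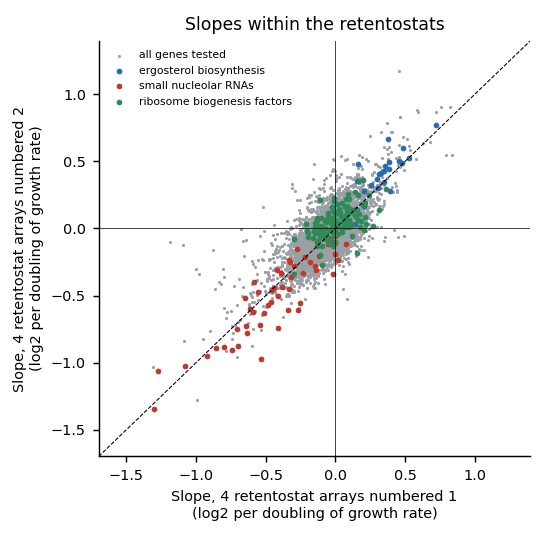
Slope of each gene over the 4 retentostat arrays numbered 2 (vertical axis) against that over the 4 numbered 1 (horizontal axis), both in log2 intensity per doubling of growth rate, with the line of equality dashed. Grey points are all 5597 genes (r = 0.730), red the small nucleolar RNAs, blue ergosterol synthesis and green ribosome biogenesis. The red and blue points lie mostly in opposite quadrants, while the green ones lie around 0.

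The choice of predictor changed the number of slopes less than the number of departures. Linear growth rate gave 1779 genes higher at slower growth and 873 lower, in place of 1963 and 812. Days gave 1790 genes higher at later days and 563 lower. Over the 5 groups the linear growth rate correlated with its log2 at r = 0.913, and log2 growth rate with days at 0.966 in size. The best of the 3 predictors was linear growth rate for 2418 genes (43.2%), days for 1737 (31.0%) and log2 growth rate for 1442 (25.8%). Among the 3054 genes called by any of them, linear growth rate was best for 40.4%, log2 growth rate for 37.6% and days for 22.0%. Among those genes the line's median share of all variation, replicate spread included, was 66.6% for log2 growth rate. It was 63.5% for the linear scale and 58.7% for days. Against the linear scale 118 genes departed, and against days 289, in place of 21.

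Level genes could be looked for among few genes only. The 95% interval had a half-width under 0.05 for 97 of the 5597 (1.73%), so for the rest no slope could be placed within 0.05 of 0. An interval within these bounds was found for 11 protein-coding genes with a standard name, and 1 of them had a mean intensity over 50. This was BNA2, an enzyme of NAD synthesis from tryptophan, with 1628, 1611 and 1452 in the chemostats, 1426 and 1459.5 on day 2, 1714 and 1581 on day 9, 1502 and 1626 on day 16, and 1534 and 1438 on day 22 (95% interval -0.049 to 0.050). The others named, CTF19, EMA17, LOH1, RRG8 and SPO11, lay at or just above the floor, where no slope can be measured. The actin gene ACT1 (-0.0020 ± 0.037, 95% interval -0.081 to 0.077) was level on average with 9949 on the first array of day 9 and 5463 to 7342 on the other arrays.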

How the data were processed

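RNA was measured on 11 1-colour arrays, 3 of chemostats and 2 of each of 4 retentostat days, grouped by the labels. The values are linear probe-set intensities as deposited by the authors, made with GCOS 1.2 per the submitters' processing notes, while the software's settings and the target intensity of its scaling are unknown, being not given in the sources used here. Trimmed means of the arrays lay between 300.2 and 300.3, so that scaling was kept. Per the labels' protocols, hot phenol was used to extract total RNA, which was labelled with the manufacturer's 1-cycle assay. Probe sets were named from GEO's platform annotation, matched by gene ID to the S288C R64 reference (names and biotypes only), and probe sets with several genes or none were left out. The probes were designed for S288C, not CEN.PK.

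Values under 12 were set to 12 and log2 was taken. The probe set of highest mean was kept per gene, and a gene that never exceeded the floor was dropped. Slopes were fitted with limma 3.58.1 in R 4.3.3 on centred log2 growth rate (9 residual and 4.48 prior degrees of freedom). Departures were tested with a moderated F over the 3 higher polynomial terms, curvature with the quadratic term alone, and bends with a hinge at day 9. The two-sided p-values were adjusted by Benjamini-Hochberg over 5597 genes, with a threshold of 0.05. The script was tested on simulated data. The number of arrays limits the precision, and p-values measure the spread between arrays, of which retentostat days share cultures.

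The genes named were the 10 steepest of each sign without a departure, up to 5 departures per shape, the 3 steepest non-coding RNAs, up to 2 members of each list per direction, a panel of 15 genes, mating type markers and 6 level genes. The other departures were named after their values were seen. The members and lists were chosen with earlier results of these data known. Alternatives covered scaling, floor, filters, probe-set choice, replicate block, actin ratio, predictor, prior variance and leaving out arrays. No sequences were analysed here.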

Additional observations from a re-analysis of the deposited data

How the results depend on the processing

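The number of genes with a slope, 2775, stayed within 1.5 times under all other alternatives run, for scaling, floor, filter, probe set, covariate, predictor, spread, replicate block and left-out array, with 2228 to 2978 when 1 array was left out, but it was 790 over the retentostat arrays only. There the slope of ALD6 reversed to -0.207. Of the 187 slopes of named genes, 102 kept their direction and side of the threshold in that fit, 81 kept the direction and lost the call and 3 gained it. The 21 departures were far less stable. They numbered 10 with no floor above 1, 32 with a floor of 50, 4 with no filter, 7 with the actin ratio as a covariate, and 0 both without the 2 arrays of lowest actin ratio and over the retentostats only, where fewer groups are left. They numbered 118 against the linear growth rate, 289 against days, 333 with the hinge and 139 with the quadratic term. Leaving out 1 array gave 0 to 325 departures, 25 to 200 genes with curvature in place of 139, and 11 to 773 genes with a changed slope at day 9 in place of 333. The last was also 181 after quantile normalization, 86 with the actin covariate and 17 without the 2 arrays of lowest actin ratio. The cause of these shifts was not tested. The labels do not say which number follows which of the 2 retentostats. Replicate numbers were not taken as pairing. The differences between the replicates correlated over genes at 0.0767 between days 9 and 16 and at 0.104 to 0.400 in the other 5 pairs of days. These correlations cannot show whether a number follows 1 culture. A random block that took each replicate number to follow 1 culture gave 2775 slopes and 39 departures (correlation within such a block -0.0012). With the replicate number as a fixed block there were 2580 and 32. Since the numbers may not follow the cultures, neither fit measures how much shared cultures matter. Group sizes of 2 and 3 arrays, the 12 floor for dim genes and probes shared by close copies limit what single genes can show, and a change in RNA per cell is not visible in values scaled to the same mean.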

Other observations

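Phosphate acquisition genes had 13 of 22 members higher at slower growth and 2 lower, with a median slope of -0.11. PHO84, the high-affinity phosphate transporter, had 122.9, 126 and 129 in the chemostats, 134 and 202 on day 2, 333 and 364 on day 9, 447 and 429.9 on day 16, and 487 and 466 on day 22 (-0.39 ± 0.032, adjusted p 2.0e-06 from limma), and GIT1 was steeper still. The 2 that were lower were PHO4 (0.48 ± 0.084), the activator of the pathway, and PHO91 (0.11 ± 0.027), a low-affinity vacuolar transporter. PHO4 fell unevenly, with 121 and 33.3 on day 16 and 80.2 and 25.7 on day 22, against 322, 360 and 171 in the chemostats. Regulators of nutrient signalling had 17 of 35 higher and 2 lower. The number higher was 11 after quantile normalization and with the actin covariate, 10 with 1 median and 3 in the retentostat arrays alone, against 8 of the 22 phosphate genes there. DOT6 (-0.22 ± 0.043), a repressor of ribosome biogenesis genes, was higher, and IFH1 (0.15 ± 0.041), a co-activator of ribosomal protein genes, was lower.

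Of 11 genes of a cells and alpha cells 8 were higher and 0 lower. All 4 alpha-cell genes, MF(ALPHA)1, MF(ALPHA)2 (-0.54 ± 0.064), STE3 (-0.28 ± 0.032) and SAG1 (-0.29 ± 0.026), were higher at slower growth, as were the a-cell genes MFA2 (-0.15 ± 0.036), STE2 (-0.15 ± 0.028), AGA2 (-0.19 ± 0.037) and ASG7 (-0.31 ± 0.052). The slopes of MFA1 (-0.067 ± 0.054), STE6 (0.029 ± 0.034) and BAR1 (-0.028 ± 0.037) had adjusted p of 0.32, 0.5 and 0.56. Meiosis and sporulation had 14 of 33 higher, including the kinase gene SPS1 (-0.41 ± 0.032), and 2 lower. The share higher, 42.4%, stands beside 35.1% of all genes, and with the actin covariate 7 were higher. Of 14 protein-coding genes of the mitochondrial genome 6 were higher (42.9%, beside 35.1% of all genes) and 0 lower. COB, apocytochrome b, had 15.3, 13.0 and 12 in the chemostats, 12 and 19.5 on day 2, 25.7 and 29.7 on day 9, 45.3 and 55.8 on day 16, and 89.1 and 98.0 on day 22 (-0.50 ± 0.053), and COX3 had 142 and 118 at day 22, against 26.4, 23.1 and 14.6 in the chemostats. With the actin covariate 3 of the 14 were higher. CRS5, a metallothionein gene annotated as a pseudogene, was higher too (-0.41 ± 0.055).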
